A study of Ovis aries with 3 samples.

Results

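The translation initiation and elongation factor genes of sheep were described in the RNA of extracellular vesicles, the small membrane-bound particles that cells release. Members were the table rows named EIF1 to EIF6, EEF1 or EEF2 with any suffix, ETF1, or TPT1, and 55 of 25197 rows met this rule. All 55 names are symbols in the sheep RefSeq gene table of the ARS-UI_Ramb_v3.0 assembly. The deposited table describes 52 of the 55 as initiation or elongation factors or their kinases and binding proteins, and the other 3, TPT1, EEF1E1 and EIF3F, as uncharacterized proteins. No row was named ETF1.

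The vesicles came from sheep conceptuses, that is embryos with their membranes, recovered on day 14 of pregnancy and kept alone in culture for 24 h, in medium with 10% fetal bovine serum depleted of exosomes. There were 3 libraries in 1 group, with no treatment and no control group, and RNA of the conceptus cells was not analysed here. Which animal gave which library is not in the labels. The variation among the libraries can therefore include technical variation, and any p-value over libraries measures only this variation. In RNA of this kind, fewer vesicles or source cells and less RNA in each cannot be told apart.

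Initiation brings the small ribosomal subunit, the initiator tRNA and the capped end of an mRNA together. Factors eIF1, eIF1A, eIF2, eIF3 and eIF5 assemble on the small subunit, the eIF4 proteins bind the cap and unwind the leader, and eIF5B joins the large subunit. Elongation then runs through eEF1, which delivers charged tRNAs, and eEF2, which moves the ribosome along. Many mRNAs of elongation factors, TPT1 and a few eIF3 subunits carry in humans an oligopyrimidine start that ties their translation to growth signals. In sheep the trophectoderm, the outer epithelium of the conceptus, elongates and secretes protein heavily at this stage.

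Values are RPKM-type, that is read numbers divided by gene length and library depth, and genes that reached a value of 1 in each of the 3 libraries are called detected. The libraries summed to 17480.7, 40060.3 and 9531.8 in libraries 1, 2 and 3. From the size of a single read in copies of U6, a short RNA, the depth relative to library 2 was 1.28 in library 1 and 1.21 in library 3. Total read numbers are unknown. Library 2 had the highest sum and library 3 the lowest. Trophectoderm markers KRT8 and TP-1 were both detected, with summed values of 33.0, 165.1 and 32.0 in libraries 1, 2 and 3, and the other markers listed, KRT18 and IFNT, matched no row. The summed values of 3 mesoderm markers were 3.8, 5.4 and 0.4, those of 3 leukocyte markers 1.7, 2.9 and 0.2, and those of the 2 erythroid markers with a row 0.7, 1.2 and 0.7. None of these 8 was detected. The mesoderm marker VIM (3.4, 4.5 and 0.1) and the leukocyte marker CD74 (1.5, 1.3 and 0.1) nevertheless reached 1 in libraries 1 and 2. The leukocyte marker CD68 did so in library 2 only (1.5). No defining marker was at 0 in all 3 libraries, and the part of any cell type in the levels below was not tested.

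Of the 55 translation factor rows 15 were detected (27.3%, against 3.89% of all rows). A further 17 reached 1 in 2 libraries, 6 in a single library and 17 in none, and 3 of the last, EEF2K, EIF4E1B and EIF4ENIF1, were listed at 0 throughout. By library, 31, 38 and 16 members reached 1 in libraries 1, 2 and 3, against 9.37%, 13.6% and 7.88% of all rows. The median member stood at 1.3, 2.8 and 0.2, and the median of all rows at 0.1 in each library. In libraries 1, 2 and 3 the members made up 0.988%, 1.17% and 0.627% of the library's sum. Without replicate 3, 31 members met the rule, as did 1838 of all rows, against 981 of all rows with the 3 libraries. No test of the list was made, so these rates are a description of 3 libraries.

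**Figure D1:**
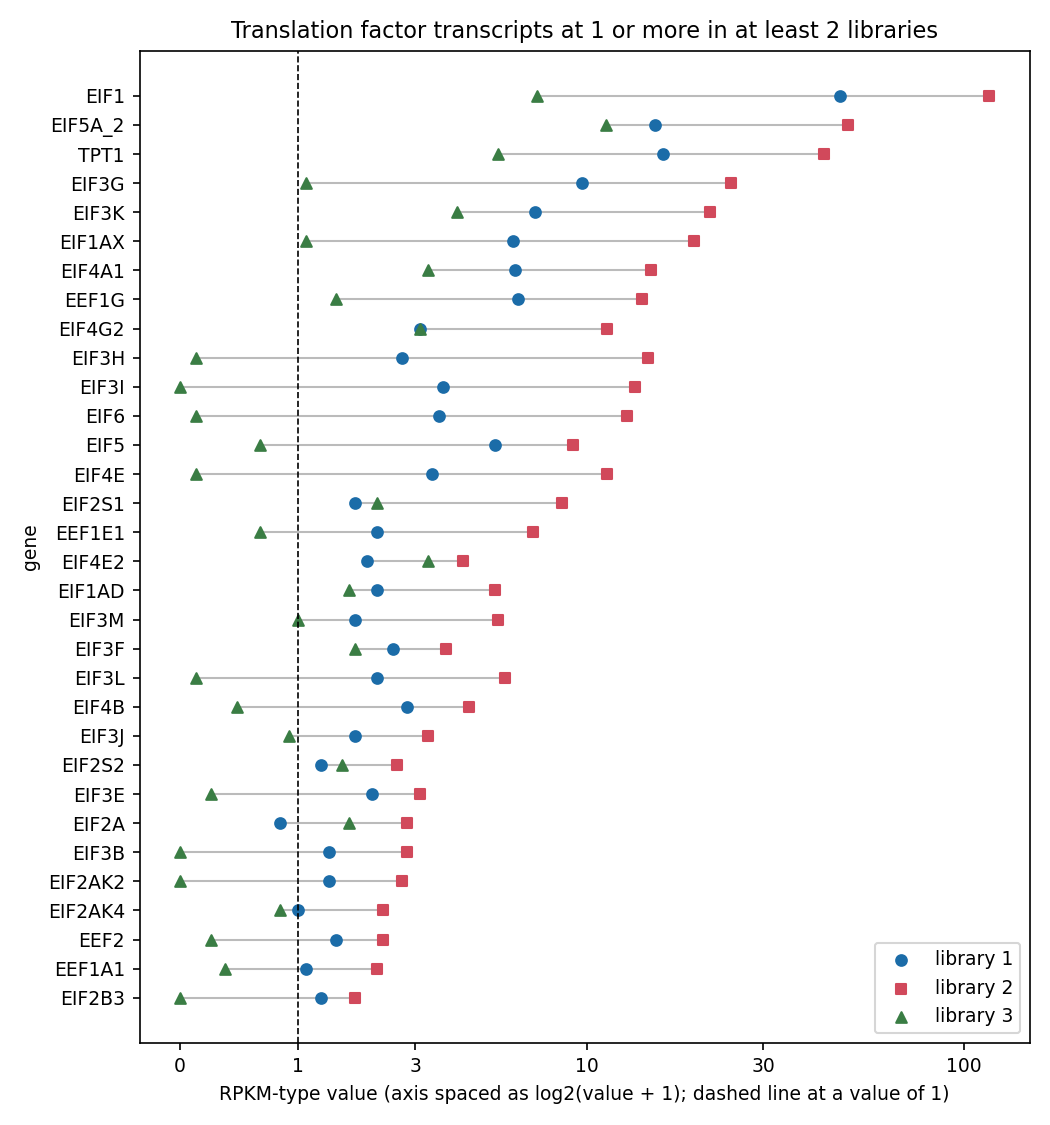
RPKM-type value (horizontal axis, spaced as log2(value + 1)) of the 32 members that reached 1 in at least 2 libraries, with 1 symbol per library and the detection value dashed. Library 2 is the highest for each gene shown, EIF1 leads in libraries 1 and 2, and library 3 lies at 0.1 or less for EIF3H, EIF3I, EIF6, EIF4E, EIF3L, EIF3B, EIF2AK2 and EIF2B3.

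Factors of start-codon scanning included the member with the highest mean. EIF1, which keeps the scanning ribosome open until it meets a start codon, had 47.7, 116.5 and 7.2 in libraries 1, 2 and 3. These values ranked 44th, 50th and 159th of all 25197 rows. EIF1 was the highest member in libraries 1 and 2 and supplied 27.6%, 24.8% and 12.0% of the members' summed value.

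EIF1AX, the partner of eIF1 on the small subunit, had 6.1, 19.7 and 1.1. EIF1AD, a gene with an eIF1A-like domain, had 2.2, 5.4 and 1.7. EIF1B, a close relative of EIF1, had 0.5, 6.1 and 0.8 and was not detected. Of the 4 EIF1 rows, 3 were thus detected, and library 2 was the highest for each of the 4.

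The eIF2 genes were lower. EIF2S1, the subunit whose phosphorylation slows initiation, had 1.8, 8.5 and 2.2, and EIF2S2, the beta subunit, had 1.3, 2.6 and 1.6. Both were detected, and both had a lower value in library 1 than in library 3. For EIF2S2 those 2 values lay below the 99th percentile of olfactory receptor rows (1.44 and 1.74 in libraries 1 and 3). EIF2A, a separate factor able to bring initiator tRNA to the ribosome, had 0.8, 2.8 and 1.7, and EIF2D did not exceed 0.2.

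None of the 5 subunits of eIF2B, which reloads eIF2 with GTP, was detected. EIF2B3 had the highest mean of them, with 1.3, 1.8 and 0, EIF2B2 had 0, 1.9 and 0.1, and in library 3 none of the 5 exceeded 0.1. The kinases that phosphorylate eIF2 were not detected either. EIF2AK2, the kinase PKR that responds to double-stranded RNA, had 1.4, 2.7 and 0. EIF2AK4, the kinase GCN2 that responds to amino acid shortage, had 1, 2.3 and 0.8. EIF2AK1 and EIF2AK3, the heme and endoplasmic reticulum stress kinases, stayed at 0.1 to 0.2 in every library.

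The subunits of eIF3, the largest initiation factor, differed widely in level although they work as a complex. Their means spanned 13.1-fold between EIF3G and EIF3A. In library 3, however, EIF3G and EIF3A stood at 1.1 and 0.7. Both lay below the 99th percentile of olfactory receptor rows there (1.74), used below as a measure of background. EIF3G, an RNA-binding subunit, had 9.7, 24.6 and 1.1 in libraries 1, 2 and 3. EIF3K, the smallest subunit, had 7.1, 21.7 and 4.1, and was the highest subunit in library 3.

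EIF3F and EIF3M, which belong to the core of the complex, had 2.5, 3.8 and 1.8 and 1.8, 5.5 and 1. With EIF3G and EIF3K these were the 4 detected of 12 subunits. At the other end stood EIF3A, the large scaffold subunit, with 0.9, 1.1 and 0.7. Its range over libraries was the narrowest of the 12. The range did not overlap that of EIF3K, and met that of EIF3G at 1.1.

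In 6 further subunits only library 3 fell short of 1. EIF3H had 2.7, 14.7 and 0.1, and EIF3I, a partner of EIF3B and EIF3G, 3.7, 13.6 and 0. EIF3L had 2.2, 5.8 and 0.1, EIF3E 2.1, 3.1 and 0.2, EIF3B 1.4, 2.8 and 0, and the loosely bound EIF3J 1.8, 3.3 and 0.9. EIF3D, which can itself contact the mRNA cap, had 0.8, 4.5 and 0.1. The order of the 12 subunits was alike in libraries 1 and 2 (Spearman's rho 0.81, n = 12 subunits) and less so between library 3 and libraries 1 and 2 (rho 0.33 and 0.23). These coefficients are across genes that share their libraries, and rounding makes ties among the low values of library 3.

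**Figure D2:**
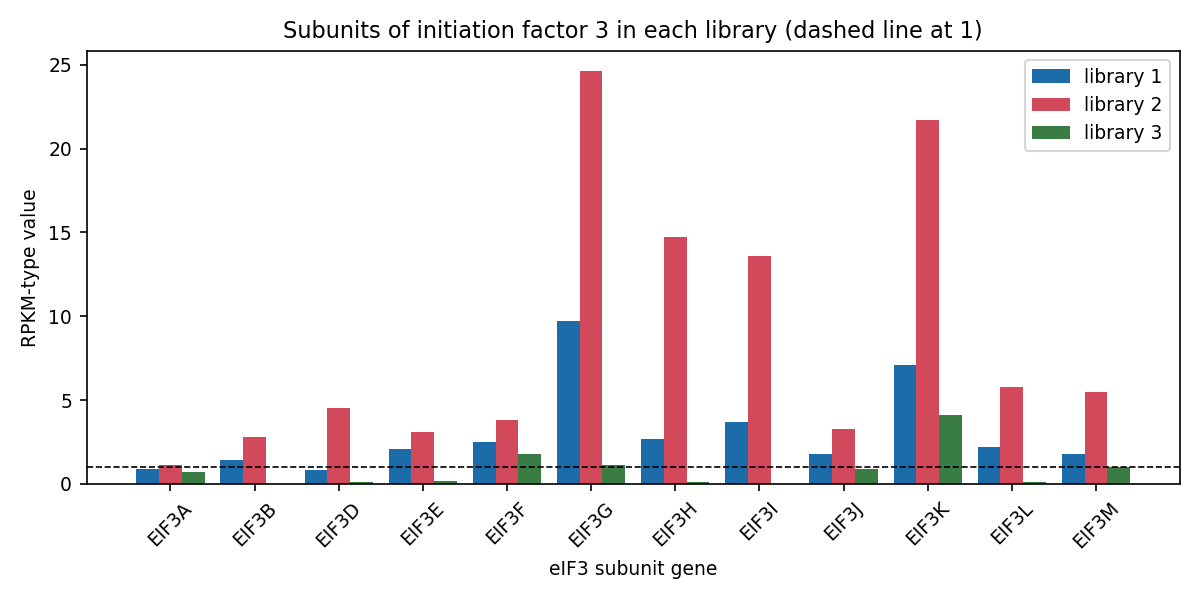
RPKM-type value (vertical axis) of the 12 eIF3 subunit genes, with 1 bar per library and a dashed line at the detection value of 1. EIF3G and EIF3K exceed the other subunits in libraries 1 and 2, whereas in library 3 only EIF3F, EIF3G, EIF3K and EIF3M reach 1.

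Among the eIF4 genes the helicase EIF4A1 and the scaffold EIF4G2 had the highest means. EIF4A1, the helicase that unwinds mRNA leaders, had 6.2, 15 and 3.3 in libraries 1, 2 and 3. EIF4G2, an eIF4G relative that does not bind the cap-binding protein eIF4E, had 3.1, 11.4 and 3.1. EIF4E2, a cap-binding protein that does not engage eIF4G and is known as a repressor, had 2, 4.3 and 3.3. These 3 were the detected ones of 13 EIF4 rows.

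EIF4E, the cap-binding protein itself, had 3.4, 11.4 and 0.1, and so was above EIF4E2 in libraries 1 and 2 and below it in library 3. EIF4B, a helper of the helicase, had 2.8, 4.5 and 0.4. EIF4G1, the main scaffold of cap-dependent initiation, had 0.1, 0.2 and 0.1, and EIF4G3 had the same values. EIF4H, another helper of the helicase, had 0.4, 0.8 and 0.1. The eIF4E inhibitors EIF4EBP1 and EIF4EBP2 stayed between 0 and 0.7, and EIF4E3 did not exceed 0.4.

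EIF5A_2 was the second member by mean. Its protein carries the modified amino acid hypusine and keeps ribosomes moving through difficult sequences. It had 15.4, 50.1 and 11.3 and was the highest member in library 3, where it ranked 83.5th of all rows, against 131st and 117th in libraries 1 and 2. The other copy of the name, EIF5A_1, had 0.3, 0.2 and 0.3, and the related EIF5A2 0, 0.2 and 0.2. How reads were divided between the EIF5A copies is uncertain.

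EIF5, which triggers GTP hydrolysis by eIF2, had 5.4, 9.1 and 0.6. EIF5B had 0.5, 0.9 and 0.4. EIF6, which holds free large subunits apart from small ones, had 3.6, 12.9 and 0.1. EIF5 and EIF6 missed detection through library 3, while EIF5B was below 1 in all 3 libraries.

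Of the 6 EEF rows that met the name rule only EEF1G was detected, and the detected row EF-1, outside that rule, is described below. EEF1G, a subunit of the complex that recharges eEF1A with GTP, had 6.3, 14.2 and 1.5, the highest of the 6 EEF rows in each library. EEF1E1, a component of the multi-tRNA synthetase complex, had 2.2, 7 and 0.6. EEF2, the translocase, had 1.5, 2.3 and 0.2.

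EEF1A1, which delivers charged tRNA and is among the most abundant mRNAs of many cell types, had 1.1, 2.2 and 0.3, and the muscle and nerve form EEF1A2 at most 0.1. A further 7 rows without a symbol are described as elongation factor 1-alpha, and with them the sum was 1.3, 2.4 and 0.6 over 8 rows. EEF1A1 ranked 2066th, 1771st and 4779th of all rows. EEF1A has near-identical copies, and how reads shared by them were counted is not given in the sources used here.

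TPT1, a growth-associated protein whose mRNA is a classical oligopyrimidine transcript in humans, had 16.2, 43.4 and 5.5. Of the 9 members on the list of such transcripts, 3 were detected (TPT1, EEF1G and EIF3F), and their median log2(value + 1) was 1.81, 2.26 and 0.38 in libraries 1, 2 and 3. For the 46 other members the count was 12 and the median 0.96, 1.87 and 0.20. Without TPT1 the median of the remaining 8 was 1.72, 2.15 and 0.32.

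Some rows of the same factors lie outside the name rule. EF-1, described as elongation factor 1-delta, had 10.8, 27.2 and 2.7, and RefSeq lists EF-1 as a synonym of EEF1D, a partner of EEF1G. This exceeded each named elongation factor row in all 3 libraries. The unnamed row ENSOARG00000000943, described as the TPT1 protein, had 4.5, 12.5 and 1.7, and ENSOARG00000002892, described as eIF3 subunit C, 0.7, 1.5 and 2.5. Both carry identifiers of the deposited table only and were chosen for their descriptions after their values were seen. Of 38 core factor symbols, 31 had a row, and EIF2S3, EIF3C, EIF4A2, EIF4A3, EEF1B2, EEF1D and ETF1 matched no name.

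By group, over all rows, the EIF1 rows had the highest median of the 6 groups in every library. Against EIF4 and EIF5 this order rests on the rows near 0 in those groups. With only the rows that reached 1 in at least 1 library, the EIF1 median was 2.37 (mean over libraries). The medians of EIF5 and EIF4 were then higher, at 3.34 and 2.57, and those of EIF3, EEF and EIF2 lower, at 1.58, 1.46 and 0.95. That limit left out 3 of the 5 EIF5 rows and 8 of the 13 EIF4 rows. Over all rows the EIF1 median log2(value + 1) was 2.25, 3.60 and 1.25 in libraries 1, 2 and 3 (2.37 ± 1.18, SD, n = 3 libraries). The EIF3 rows followed with 1.66, 2.58 and 0.51 (1.58 ± 1.03), and the EEF rows with 1.20, 1.70 and 0.32 (1.07 ± 0.70). EIF1 was above EIF3, and EIF3 above EEF, in 3 of 3 libraries.

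The EIF5 rows had 0.58, 0.93 and 0.49 (0.67 ± 0.23), the EIF2 rows 0.14, 1.49 and 0.14 (0.59 ± 0.78) and the EIF4 rows 0.49, 0.68 and 0.14 (0.43 ± 0.27; SD, n = 3 libraries each). EIF2 and EIF4 changed places between libraries 1 and 2 and were equal in library 3. For each pair of neighbours in the order of means, the difference of means was smaller than the larger of their SDs over libraries. Those SDs include differences between libraries that the groups share. Within libraries 1, 2 and 3, EIF1 minus EIF3 was 0.60, 1.02 and 0.74, and EIF3 minus EEF 0.46, 0.88 and 0.19. EEF minus EIF5 was 0.61, 0.77 and -0.16, and EIF2 minus EIF5 -0.45, 0.56 and -0.35. The groups hold 4, 13, 12, 13, 5 and 6 rows in the order EIF1, EIF2, EIF3, EIF4, EIF5 and EEF, so the EIF1 and EIF5 medians rest on few genes. With the EIF5A copies summed, the EIF5 median was 1.45, above that of EEF.

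**Figure D3:**
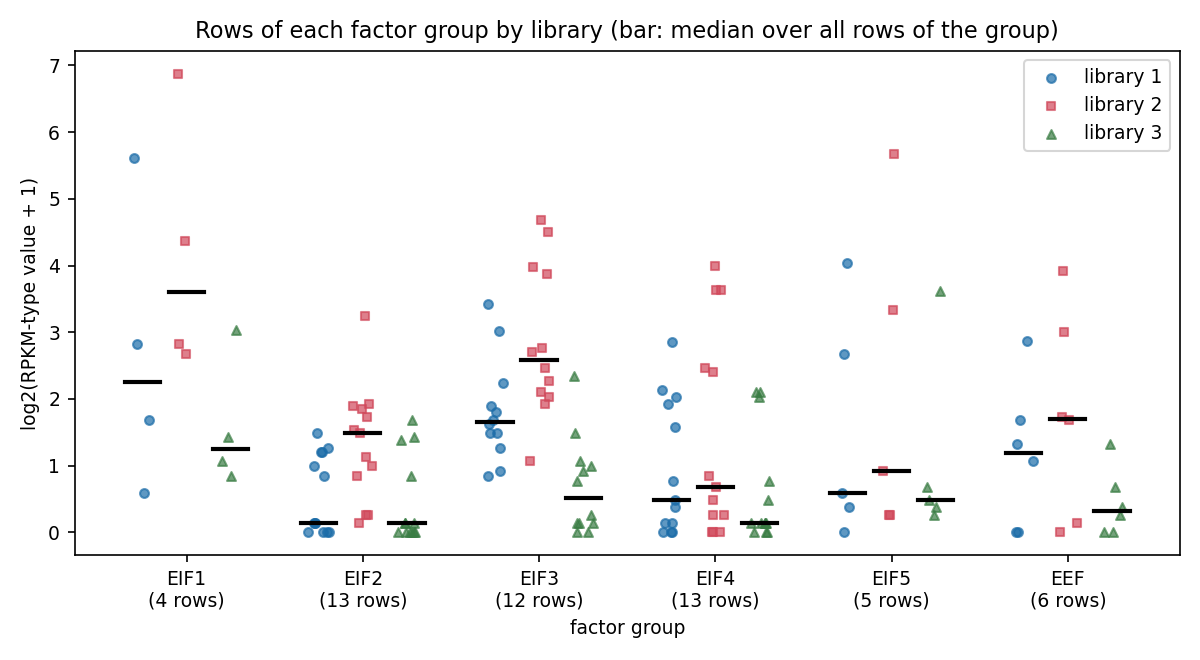
Every row of the 6 factor groups by library as log2(RPKM-type value + 1) (vertical axis), with the median over all rows of the group as a bar. The EIF1 bar is the highest and the EIF3 bar the second highest in each library, and single genes such as EIF5A_2 lie far above the bar of their group.

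Pairs of genes with related names or roles were compared within each library, on the log2(value + 1) scale, over the 7 pairs of 8 listed that had rows for both genes. EIF1 exceeded EIF1B by 3.75 ± 1.44, EIF5A with its copies summed exceeded EIF5A2 by 4.29 ± 1.03, and EIF4G2 exceeded EIF4G1 by 2.39 ± 0.85 (SD, n = 3). EIF5 exceeded EIF5B by 1.57 ± 1.20 and EEF1A1 exceeded EEF1A2 by 1.00 ± 0.58. EIF2S2 minus EIF2S1 was -0.66 ± 0.64.

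Each of these 6 differences had the same sign in 3 of 3 libraries. All 6 gave p = 0.25, the smallest that the two-sided exact permutation test by sign flips can give with 3 libraries, and 0.292 after Benjamini-Hochberg adjustment over 7 pairs, so none could pass 0.05. EIF4E minus EIF4E2 was 0.55, 1.23 and -1.97 in libraries 1, 2 and 3 (mean -0.063 ± 1.68, exact p = 1).

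**Figure D4:**
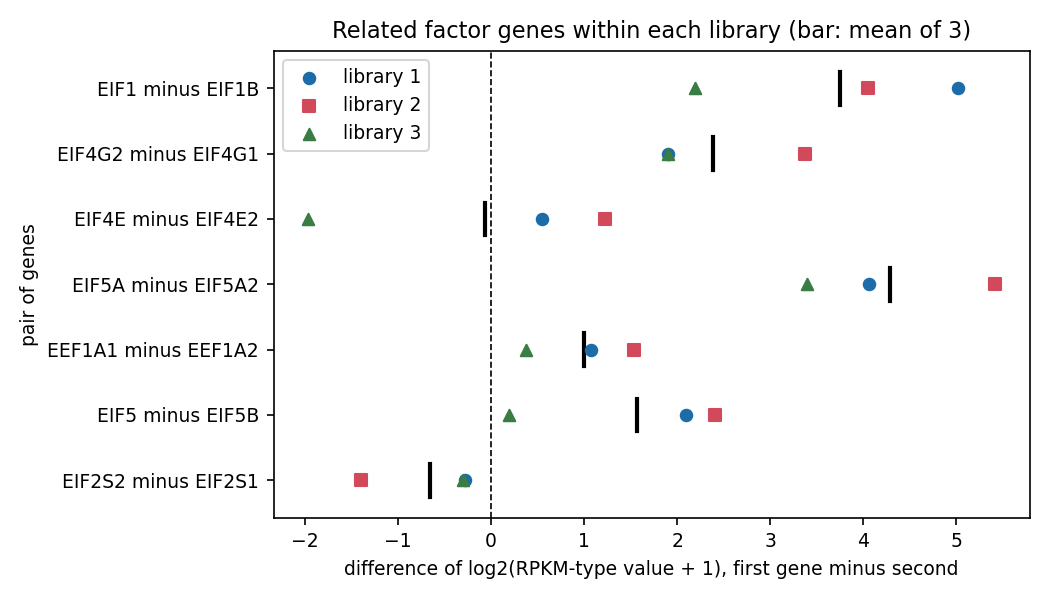
Difference of log2(RPKM-type value + 1) between related genes (horizontal axis, first gene minus second), with 1 symbol per library and the mean as a bar. The library values of EIF1 minus EIF1B, EIF4G2 minus EIF4G1 and EIF5A minus EIF5A2 all lie between 1.90 and 5.42, whereas EIF4E minus EIF4E2 lies on both sides of 0.

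The libraries differed in which factors they held. All 32 members that reached 1 in at least 2 libraries, a limit set once values had been seen, were highest in library 2, as were 69.9% of all such rows. Each of the 32 had also reached 1 in library 2, so the limit favours that library. After division by the library sum, 14 of the 32 were highest in library 2 (against 24.6% of rows), and after division by the median of the detected rows 19 of 32 (against 31.4%). Over the 15 detected members the median log2 ratio of (value + 1) was 1.26 for library 2 over library 1, against 0.98 for all 981 detected rows. It was 1.90 for library 2 over library 3, against 1.20 for the detected rows. Both ratios depended on the scaling. After division by the library sum the members' ratios were 0.15 over library 1 and 0.11 over library 3, and after division by the median of the detected rows 0.14 and 0.45.

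Fewer of the factors, and fewer of all rows, reached 1 in library 3 (16 members, 7.88% of rows) than in library 1 (31, 9.37%) or 2 (38, 13.6%). Library 3 was the lowest library for 27 of the 32 members (against 61.7% of rows). After division by the library sum it was lowest for 20 of 32 (against 42.9%). After division by the median of the detected rows it was lowest for 26 of 32 (against 51.5%). Of the 31 members at 1 or more in libraries 1 and 2, 16 were below 1 in library 3 (51.6%), close to the share of all rows (46.6%). These 16 are among the 32, and their unscaled values were lowest in library 3 by the limit itself. Of the 15 detected members, for which the limit forces no order, 11 were lowest in library 3. The same share over all detected rows was not counted, so this count has no base rate. For these 15 the median log2 ratio of (value + 1) of library 1 over library 3 was 0.49, against 0.20 for all 981 detected rows. The members' ratio was -0.083 after division by the library sum and 0.18 after division by the median of the detected rows. Of 21 members at 2 or more in libraries 1 and 2, 5 were at 0.1 or less in library 3, namely EIF3H, EIF3I, EIF3L, EIF4E and EIF6, a cut chosen after the values were seen (23.8%, against 15.1% of rows).

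A few members went the other way. EIF2A, EIF2S1, EIF2S2 and EIF4E2 were the 4 of 32 members with a higher value in library 3 than in library 1 (against 32.6% of rows). Scaled to a library sum of 1000000, EIF5A_2 stood at 881, 1251 and 1186 in libraries 1, 2 and 3, whereas EIF1 stood at 2729, 2908 and 755. Across all 55 members Spearman's rho was 0.92 between libraries 1 and 2, 0.66 between 1 and 3 and 0.62 between 2 and 3, a description across genes that share the libraries. In the same order rho was 0.92, 0.53 and 0.48 over the 15 detected members, and 0.75, 0.61 and 0.51 over all 981 detected rows. Only 9 members exceeded the 99th percentile of 481 olfactory receptor rows in all 3 libraries (16.4%, against 2.37% of all rows). They were EIF1, EIF5A_2, TPT1, EIF3K, EIF3F, EIF4A1, EIF4G2, EIF4E2 and EIF2S1. That percentile, a measure of background, was 1.44, 1.02 and 1.74, and the other 6 detected members (EIF3G, EIF1AX, EEF1G, EIF1AD, EIF3M and EIF2S2) lay below it in library 3. In both libraries 1 and 3, EIF2S2 and EIF2A lay below it.

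**Figure D5:**
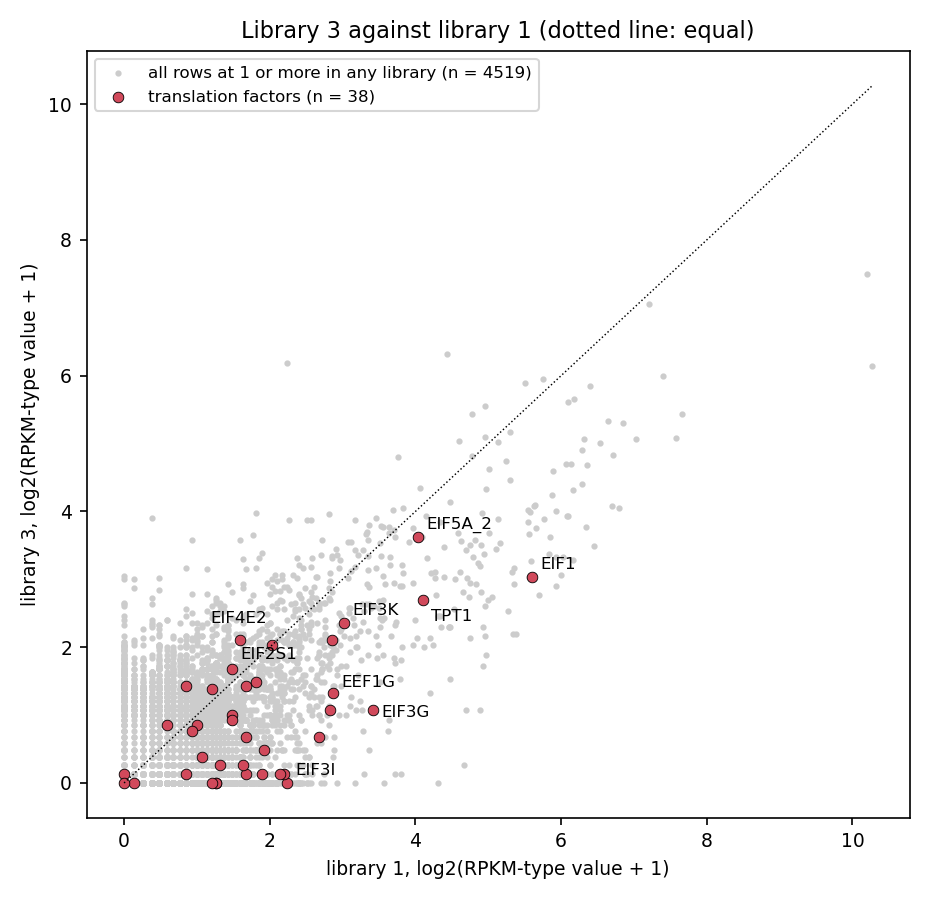
Library 3 (vertical axis) against library 1 (horizontal axis) as log2(RPKM-type value + 1), with grey points for the 4519 rows that reached 1 in any library, red points for the 38 such translation factors and a dotted line of equality. Most factors lie below the line, EIF5A_2 lies close to it, and EIF4E2 and EIF2S1 lie above it. Of all rows at 1 or more in at least 2 libraries, 32.6% were higher in library 3 than in library 1, beside 4 of 32 members.

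Other genes of protein synthesis were given for context from fixed lists. Of 26 helper and regulator genes with a row, 3 were detected. PABPC1, which binds poly(A) tails and meets eIF4G, had 10, 22.1 and 14, PAIP2, its inhibitor, 2.3, 5.6 and 2.8, and DENR, a recycling and reinitiation factor, 2.1, 5.1 and 3. All 3 were higher in library 3 than in library 1, against 32.6% of rows at 1 or more in at least 2 libraries. Detection required a value of 1 in library 3. Helpers that were not detected went either way, with PAIP1 at 2.9, 4.7 and 0.1 and DHPS at 0, 1.5 and 1.2. Of 9 mitochondrial translation factors none was detected, with MTIF3 leading at 4.1, 5.3 and 0. Of 20 genes of cytosolic tRNA synthetases and their scaffold, TARS was detected, at 1.4, 2.8 and 2.4. For these lists the median log2(value + 1) was 0.44 ± 0.37, 0.50 ± 0.47 and 0.76 ± 0.74, against 1.13 ± 0.83 for the translation factors (SD, n = 3 libraries each).

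Ribosomal protein genes, which share the same machinery, stood at 3.89 ± 1.44 with 39 of 67 detected (58.2%), and proteasome genes at 1.32 ± 0.75 with 16 of 44 detected (36.4%; SD, n = 3 libraries each). All rows of the table had a median of 0.14 in each library. The proteasome and translation factor medians differed by less than their spread over libraries, which includes differences between libraries that both lists share. In libraries 1, 2 and 3 the proteasome median was 1.20, 2.12 and 0.63, and the translation factor median 1.20, 1.93 and 0.26. The ribosomal protein median was 4.12, 5.21 and 2.35, also lowest in library 3. Ribosomal protein rows made up 9.32%, 8.57% and 4.95% of the library's sum. No test between lists was made.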

How the data were processed

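RNA of vesicles from conceptus-conditioned medium, passed through a 0.2 µm filter and precipitated with ExoQuick-TC, was made into SMART-Seq v4 libraries from 5 ng and sequenced as 50 bp read pairs, per the labels' protocols. Per the submitters' processing notes, reads were placed on Oar_v3.1; which aligner and counter served is not stated in these sources. The deposited table has 25197 rows and 1 value per library, rounded to 1 decimal; its unit is not named, and the deposited values were taken as RPKM because 1 read weighed more in short RNAs than in longer ones and the columns summed to different totals. FPKM would look alike. By U6 copies 1 read was worth 0.423, 0.542 and 0.449 in libraries 1, 2 and 3 in a gene of that length. For RNAs that short, counting error is large near 1. In longer genes 1 read was worth less, and the number of reads behind a member's value is not known. No count test was possible.

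Libraries were matched to columns by title and numbered in accession order. Members, lists and tests were chosen with earlier results of these data known. Levels used log2(value + 1), which understates differences of low genes. Related genes were compared by an exact sign-flip permutation test. Text names detected members, core factors, members at 1 or more in 2 libraries, and further members as said. Alternatives were detection values of 0.5 and 2, a rule of 2 libraries, pseudocounts of 0.1 and 0.5, other scalings, summed copies and left-out libraries. Scripts were tested on simulated data with Python 3.11.15, numpy 2.4.6, pandas 2.3.3 and scipy 1.17.1.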

Additional observations from a re-analysis of the deposited data

How the results depend on the processing

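Counts of detected members moved with the rule. At a detection value of 2, 7 members were detected, at 1 or more in at least 2 libraries 32, and above 0 in all 3 libraries 39. With a library left out the count ranged from 15 to 31, and the high end came without replicate 3. The count over all rows also rose without replicate 3, from 981 to 1838. By the same 3 rules of leaving a library out, EIF2 rows ranged from 2 to 5, EIF3 from 4 to 10, EIF4 from 3 to 5, EIF5 from 1 to 2, EIF6 from 0 to 1 and EEF from 1 to 4, again highest without replicate 3. At 1 or more in at least 2 libraries, 6 EIF2, 10 EIF3, 5 EIF4, 2 EIF5, 1 EIF6 and 4 EEF rows were detected. At a value of 0.5 there were 4 EIF2, 2 EIF5 and 2 EEF rows, and at 2 there were 1 EIF1, 0 EIF2, 1 EIF3 and 0 EEF rows. Group medians scaled to a library sum of 1000000 were 7.67 for EIF1, 6.42 for EIF3, 5.60 for EEF, 4.96 for EIF5, 4.03 for EIF4 and 3.93 for EIF2. A pseudocount of 0.1 gave 0.058 for EEF, -0.58 for EIF5, -1.24 for EIF2 and -1.28 for EIF4, and 0.5 gave 0.11 for EIF5 and -0.25 for EIF4. With rows at 1 or more in at least 1 library the medians were 2.57 for EIF4 and 3.34 for EIF5, above the 2.37 of EIF1. That limit left out 8 of 13 EIF4 rows and 3 of 5 EIF5 rows. With copies summed EIF5 was 1.45. The members' share was 1.56% of the sum of rows with a symbol. EIF4E minus EIF4E2 ranged from -0.71 to 0.89 with a library left out, and turned positive without replicate 3. The library 2 over library 1 ratio of members was 0.15 scaled to a library sum of 1000000, 0.14 after division by the median of the detected rows and 0.66 over all members. Library 2 over library 3 was 0.11 and 0.45 under those scalings, and library 1 over library 3 turned to -0.083 when scaled to 1000000. The cause of the moves other than those of fewer libraries or another scale was not tested. With the rows described as the same factors added, a choice made after seeing the data, 17 members were detected. The other 131 of 177 alternative values kept their direction or stayed within 1 SD over libraries or members, or, for counts, within 1.5 times. No paired comparison between groups of samples was possible because all libraries belong to 1 group. Pairing was used only for related genes within a library. Values rounded to 1 decimal limit what can be said of members near 0.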
